A study of Mus musculus with 6 samples.

Results

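BubR1 hypomorphic and wild-type mouse embryo fibroblasts were compared by transcript level in 4 lines, which are 4 of the 6 arrays of the series. The BubR1 H/H lines carry 2 copies of a hypomorphic allele of BubR1, an allele that retains reduced function, and are labelled chromosomally unstable. The BubR1 +/+ lines are wild type and labelled stable, and both genotypes are labelled wild type for CDC20. There were 2 lines of each genotype, all grown for 2 passages under the same conditions, with no treatment that differed between them. The sample titles give 9515 to 1 H/H and 1 +/+ line and 9938 to the other H/H and +/+ line, and lines that share a number are called a pair. The CDC20 AAA/AAA and CDC20 +/+ lines, 1 array each, were left out. A gene was compared if a probe set with a single gene symbol named it and 2 or more of the 4 arrays gave it a value of 4 or more (log2); 8420 of 12393 named genes met this and 3973 did not. Of the 8420, 8045 reached that value on all 4 arrays, 20 passed only through the H/H lines and 9 only through the +/+ lines. The labels do not give the strain, the promoter or nature of the hypomorphic change, or whether each line came from its own embryo. The p-values of the paired fit therefore cover these lines only. They rest on how far the differences of the 2 pairs agreed and on a spread shared over genes.

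BubR1, the product of Bub1b, is a kinase-like protein of the spindle assembly checkpoint. Together with Mad2, Bub3 and Cdc20 it forms the mitotic checkpoint complex, which holds back the anaphase-promoting complex until every kinetochore has bound microtubules of the spindle. Cells with too little BubR1 enter anaphase with unattached or wrongly attached chromosomes and become aneuploid, and mice with low BubR1 are known for early ageing features, including senescent cells in several tissues. The comparison therefore asks how the transcriptome of cultured fibroblasts differs when BubR1 is reduced.

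The deposited values were alike in overall level, with medians of 6.16 to 6.20 (log2) and 64.2% to 64.6% of probe sets at a log2 value of 4 or more. Their processing forces arrays to a common distribution, so this likeness says nothing about the cells. All 18 fibroblast markers on the list passed the filter on low values, at 6.23 to 13.58 on every array. Markers of macrophages and other leukocytes separated the pairs rather than the genotypes: the mean level of the 30 tested markers was 6.88 in +/+ and 6.65 in H/H of pair 9515, against 9.42 in +/+ and 9.58 in H/H of pair 9938. All 30 were higher in both lines of pair 9938 than in both lines of pair 9515. Of 13 endothelial markers 3 passed the filter: Flt1 at 9.71 to 10.60, Eng at 5.30 to 5.75 and Kdr close to the filter value of 4. The defining markers Pecam1 (2.35 to 2.39) and Cdh5 (2.38 to 2.67) lay near the bottom of the scale. Xist, the RNA that coats the inactive X, measured 2.39 and 2.24 in the +/+ and H/H lines of pair 9515 and at 11.16 and 10.70 in pair 9938, and the Y-linked Eif2s3y at 11.68 and 11.71 against 2.20 and 2.07. The pairs therefore differed in sex and in leukocyte transcripts, and each pair was matched for both. Across all genes the median absolute difference was 0.12 within pair 9515 and 0.17 within pair 9938, beside 0.20 between the +/+ lines. Between the H/H lines it was 0.15, below the value within pair 9938. A log2 difference of at least 1 was found for 44 genes within pair 9515 and 182 within pair 9938. Between the +/+ lines it was found for 555 genes, and between the H/H lines for 555.

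Bub1b was lower in both H/H lines. Its level (log2) was 7.81 in +/+ and 6.15 in H/H of pair 9515, and 8.51 in +/+ and 6.43 in H/H of pair 9938. Both H/H values lay below both +/+ values, and the H/H lines differed less from each other than the +/+ lines did. The means were 8.16 ± 0.50 (SD, n = 2) in +/+ and 6.29 ± 0.20 (SD, n = 2) in H/H, and the mean pair difference was -1.87 (SE 0.15), or 3.66-fold lower. In the limma fit with the pair as a block its unadjusted p was 0.000137 and its adjusted p 0.271 over all genes, so the targeted gene itself did not pass the threshold of 0.05. Only 1 probe set named Bub1b, and the labels do not say which part of the transcript the allele alters.

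Over all genes, the limma fit with the pair as a block called 1 gene higher in H/H at an adjusted p under 0.05 (0.0119% of genes tested) and 0 lower (0%). At an unadjusted p under 0.05, 367 genes were higher (4.36%) and 349 lower (4.14%). With 2 pairs the fit has 1 residual degree of freedom per gene, and without the block it called 0 genes, with 120 higher and 138 lower at an unadjusted p under 0.05. The direction in both pairs was the same for 2318 genes that were higher (27.5%) and 2359 that were lower (28%), and it was opposite for 3710. A difference of at least 0.5 in both pairs was found for 78 higher genes (0.926%) and 56 lower (0.665%). Of these, 60 higher and 46 lower genes had a log2 value of at least 4 on all 4 arrays. The difference was at least 1 in both pairs for 13 higher genes (0.154%) and 3 lower (0.0356%). The differences of the 2 pairs correlated across genes at r = 0.30 and rho = 0.19, a description over genes that share arrays and are not independent. The counts that follow for gene groups are to be read against these shares. Except for the gene that passed, every named difference below is a measured value that did not pass the test after adjustment, and unadjusted p-values are given as such.

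**Figure D1:**
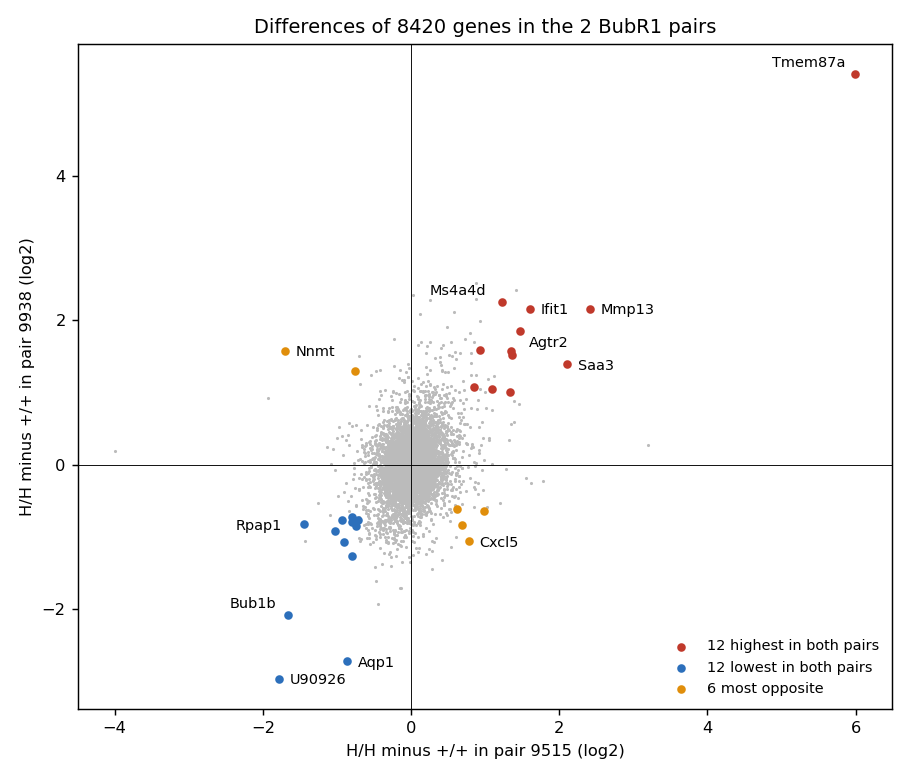
H/H minus +/+ difference (log2) of each of the 8420 genes in pair 9515 (x axis) and pair 9938 (y axis); red, the 12 highest in both pairs, blue, the 12 lowest in both pairs, orange, the 6 with the largest opposite differences, all among genes with a mean level of at least 6 in the higher group. Tmem87a stands alone at 6.0 and 5.41, Bub1b lies at -1.66 and -2.08, and the grey cloud is longer along the axis of pair 9938.

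The gene that passed was Tmem87a, which encodes a membrane protein of the Golgi. Its level was 3.35 in +/+ and 9.35 in H/H of pair 9515, and 3.41 in +/+ and 8.81 in H/H of pair 9938. Both +/+ lines lay below the floor of 4 and both H/H lines far above it. It rose by 5.70 (SE 0.18) on the log2 scale, with an adjusted p of 0.0196 in the limma fit; taken from the floor of 4 to the H/H mean of 9.08, it was at least 33.8-fold higher. It entered the test only through the H/H lines and had 1 probe set. The call was lost without the block (adjusted p = 0.248), and the gene is not tested where a value of 4 on all 4 arrays is asked, a setting under which 0 genes passed. The difference was 5.44 to 5.97 when single lines were left out.

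Tmem87a lies on chromosome 2, as Bub1b does, 20 tested genes further along in the RefSeq gene order. The neighbourhood was looked at after this was seen, with a window of 50 tested genes on each side. Among the 50 genes that follow Bub1b, 5 differed by at least 0.5 in both pairs, which is 10%: Tmem87a, Catsper2, Hypk and Sqor were higher and Rpap1 lower. Among the 50 genes before Bub1b it was 1 gene, Wt1 (2%), in the rest of chromosome 2 it was 6 of 582 (1.03%), and on the other chromosomes 121 of 7724 (1.57%). Tmem87a prompted the look at this neighbourhood and is 1 of the 5 genes after Bub1b, so the 10% is not independent of it. The median absolute difference was 0.21 in the 50 genes after Bub1b, 0.11 in the 50 before and 0.11 on the other chromosomes.

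Rpap1, which encodes a protein bound to RNA polymerase II, measured 8.67 in +/+ and 7.23 in H/H of pair 9515 and 8.28 in +/+ and 7.46 in H/H of pair 9938. Both of its probe sets were lower in both H/H lines, and the groups did not overlap. Catsper2, a subunit of a sperm calcium channel, was near the floor in the +/+ lines (4.0 and 4.08) and at 5.00 and 5.08 in the H/H lines. Hypk, a partner of the huntingtin protein and of an N-terminal acetyltransferase, measured 6.13 and 6.84 in the +/+ and H/H lines of pair 9515 and 6.04 and 6.70 in those of pair 9938. Sqor, the mitochondrial enzyme that oxidises sulfide, was higher by 0.71 and 0.86, on only 1 of its 2 probe sets. Whether more genes differ after Bub1b than elsewhere, and why, was not tested.

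**Figure D2:**
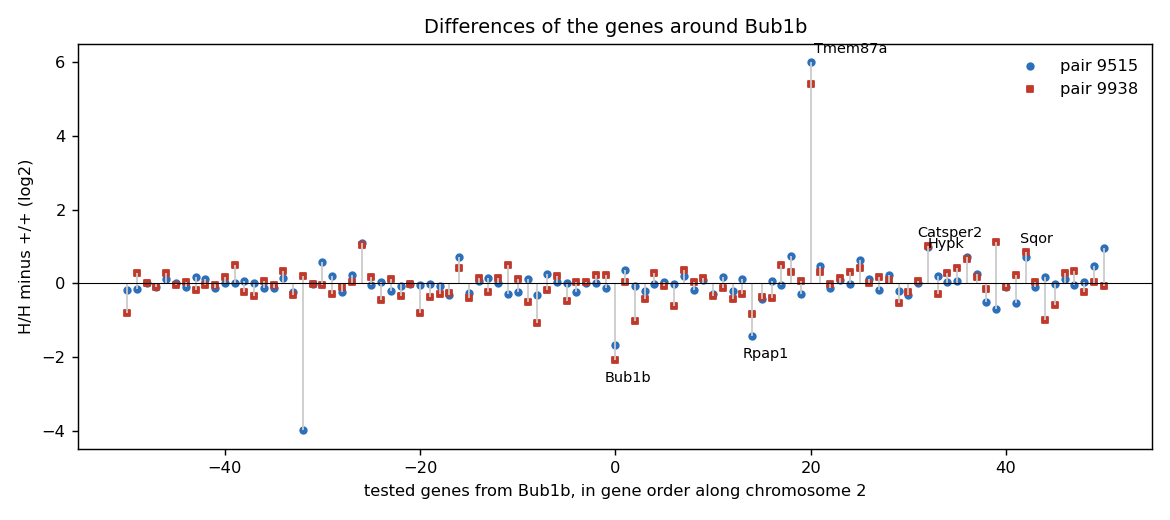
H/H minus +/+ difference (log2) of the 50 tested genes on either side of Bub1b, by their order along chromosome 2 (0 is Bub1b), in pair 9515 (blue circles) and pair 9938 (red squares). Tmem87a reaches 6.0 and 5.41 at position 20, and Rpap1, Catsper2, Hypk and Sqor also differ by at least 0.5 in both pairs; Cd59a at position -32 is far below 0 in pair 9515 only.

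Whole chromosomes differed little. The median difference of the genes on each of 20 chromosomes, with 210 to 721 genes each, ran from -0.04 (chromosome 4) to 0.02 (chromosome 12), with an SD of 0.014 over chromosomes. Within pair 9515 the range was -0.03 to 0.02, and within pair 9938 it was -0.02 to 0.03. These are medians over a population of cells, in which gains and losses carried by different cells would not show.

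Transcripts of the spindle checkpoint other than Bub1b were lower in both H/H lines for 11 of 11 members, with a median of -0.32 (-0.10 in pair 9515 and -0.50 in pair 9938) beside -0.00125 over all genes tested. Only 1 of the 11 was lower by at least 0.5 in both pairs. Some differences were very small, such as -0.002 for Mad2l1bp and -0.009 for Zw10, both in pair 9515. Spdl1, Spindly, which brings dynein to the kinetochore, measured 6.34 and 5.83 in the +/+ and H/H lines of pair 9515 and 6.73 and 6.13 in pair 9938. It was the only member with an unadjusted p under 0.05 (0.00691). Mad2l1, the checkpoint protein Mad2, differed by -0.19 and -0.62, and the kinase gene Bub1 by -0.16 and -0.47. Cdc20, the activator that the checkpoint complex binds, measured 10.85 and 10.74 in pair 9515 and 11.15 and 10.34 in pair 9938. Its 3 probe sets were all lower in both pairs, but most of its difference comes from pair 9938.

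Of 20 tested genes of the kinetochore and centromere, 0 were higher and 16 lower in both H/H lines, with a median of -0.44 and 10 at an unadjusted p under 0.05. Of the 20, 2 were lower by at least 0.5 in both pairs. Cenpk, a subunit of the constitutive centromere network, measured 8.24 in +/+ and 7.52 in H/H of pair 9515 and 8.14 in +/+ and 7.38 in H/H of pair 9938. Its lines agreed closely within each genotype and the groups stood apart, at 8.19 ± 0.07 against 7.45 ± 0.10 (SD, n = 2 each), a difference of -0.74 (SE 0.11; unadjusted p = 0.0021, adjusted p = 0.443 by limma). Cenpf, a large protein of the outer kinetochore, differed by -0.56 and -0.65, and Nuf2, of the microtubule-binding Ndc80 complex, by -0.44 and -0.94. Haspin, the kinase that marks centromeric histone H3 for the chromosomal passenger complex, measured 6.73 and 5.71 in pair 9515 and 7.17 and 6.25 in pair 9938, and only U90926 and Bub1b were lower by the smaller of their pair differences, among genes with a mean level of at least 6 in the higher group.

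The wider group of mitosis and G2/M genes gave 0 higher and 35 lower of 38 in both pairs, with 21 at an unadjusted p under 0.05 and a median of -0.44 (-0.23 in pair 9515 and -0.69 in pair 9938). Only 1 of the 38 was lower by at least 0.5 in both pairs. Racgap1, which organises the central spindle for cytokinesis, measured 9.86 and 9.17 in the +/+ and H/H lines of pair 9515 and 10.10 and 9.34 in pair 9938. It was the member with the most even differences, -0.70 and -0.76, and both of its probe sets agreed in sign. Ncapd2, a condensin subunit, measured 7.45 in +/+ of pair 9515, 7.85 in +/+ of pair 9938 and 7.00 in both H/H lines. Tpx2, the activator of Aurora A, differed by -0.44 and -0.68 (in the same direction in both pairs on 1 of 2 probe sets), and Cdc25b, a phosphatase that promotes entry into mitosis, by -0.44 and -0.81. Cenpn, which reads the centromeric nucleosome, differed by -0.33 and -0.57. Fewer dividing cells and less of each transcript per cell cannot be told apart in RNA from a whole culture.

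The size of this shift changed with the line left out. The mean level of the 38 mitosis genes was 9.21 in +/+ and 8.98 in H/H of pair 9515, and 9.65 in +/+ and 8.96 in H/H of pair 9938. The H/H lines were thus level with each other, and the +/+ line of pair 9938 was higher than the +/+ line of pair 9515. Leaving out a line sets lines of different pairs against each other. Without the +/+ line of pair 9515 the median over the 38 genes was -0.67. Without the +/+ line of pair 9938 the median over the 38 genes was -0.21, less than the -0.44 of all lines, that of the kinetochore list was -0.25, that of the checkpoint list -0.12 and that of the replication genes described below -0.23, all still below 0. Macrophage and leukocyte markers were higher in both lines of that pair, and within the pairs their medians were -0.20 (9515) and 0.17 (9938), with 5 of 30 higher and 7 lower in both. Their part in the cell cycle difference was not tested.

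**Figure D3:**
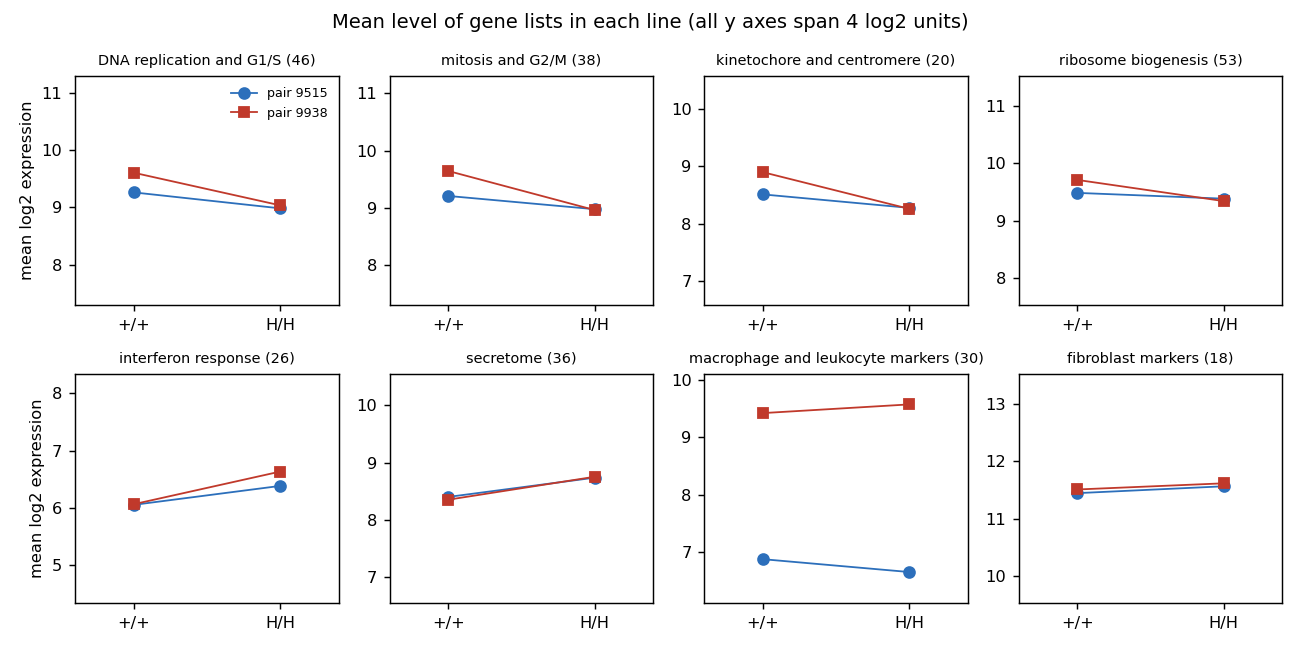
Mean log2 level of the tested members of 8 gene lists in the +/+ and H/H line of pair 9515 (blue circles) and pair 9938 (red squares); the number of members is in brackets and every y axis spans 4 log2 units. Mitosis genes meet at 8.98 and 8.96 in the H/H lines from 9.21 and 9.65 in the +/+ lines, interferon genes lie at 6.06 and 6.07 in +/+ and at 6.39 and 6.64 in H/H, and the macrophage list separates the pairs.

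Promoter sequences are shown for lower and higher members of these lists, since such genes are known to share short elements. They were taken from RefSeq (GRCm38.p6) for 250 bases before to 50 after the start site, on the strand of the gene, and both strands were searched. The first element was the cell cycle homology region TTTGAA, through which the MuvB complex is known to act on late cell cycle genes. It was present in 22 of 31 mitosis genes with a sequence (71.0%), in 5 of 18 kinetochore genes (27.8%), in 29.5% of the genes lower and 18.3% of the genes higher by at least 0.5 in both pairs, and in 14.1% of all 6867 tested genes with a sequence. Stretches before the start site of 3 lower genes that hold it follow, one each from the checkpoint, kinetochore and mitosis lists, with the element in capitals, on chr4:118437344-118437391 (minus strand), chr8:116921701-116921739 (plus) and chr6:125191674-125191739 (minus).
Cdc20: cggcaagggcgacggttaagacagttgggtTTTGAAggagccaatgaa
Cenpn: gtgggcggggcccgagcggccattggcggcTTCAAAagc
Ncapd2: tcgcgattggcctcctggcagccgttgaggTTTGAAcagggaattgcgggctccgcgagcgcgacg
The element starts 18, 9 and 123 bases before the start site, and in Cenpn it is on the other strand. In Bub1b the same letters were found 40 bases after the start. The CCAAT box, the letters CCAAT, was in 74.2% of the mitosis genes and 43.1% of all genes. Such matches describe the letters only.

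DNA replication and G1/S genes gave 0 higher and 42 lower of 46 in both pairs, with a median of -0.41 (-0.26 in pair 9515 and -0.53 in pair 9938) and 21 at an unadjusted p under 0.05. Of the 46, 6 were lower by at least 0.5 in both pairs. Cdc6, which loads the replicative helicase, measured 8.34 and 7.64 in the +/+ and H/H lines of pair 9515 and 8.99 and 8.27 in pair 9938. Within each pair the difference was nearly the same, -0.70 and -0.73, although the level of the H/H line of pair 9938 was close to that of the +/+ line of pair 9515. Lig1, the ligase that joins Okazaki fragments, measured 8.01 and 7.43 in pair 9515 and 8.16 and 7.45 in pair 9938. Mcm10, a helicase activator, differed by -0.58 and -0.82 on a probe set whose partner had the same sign, and Rfc5, a clamp loader subunit, by -0.59 and -0.90. Cdca7l, a relative of the cell division gene Cdca7, was among the 12 lowest genes, at -0.80 and -1.27.

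Genes of DNA damage signalling and recombination, many of which are also made in S phase, gave 1 higher and 18 lower of 24, with a median of -0.31 and 8 at an unadjusted p under 0.05. Only 1 of the 24 was lower by at least 0.5 in both pairs. Brca2, a tumour suppressor gene of homologous recombination, measured 7.04 in +/+ and 6.30 in H/H of pair 9515 and 7.24 in +/+ and 6.39 in H/H of pair 9938. The groups did not overlap, at a difference of -0.80 (SE 0.12), and it was among the 12 lowest genes. Blm, the Bloom helicase, differed by -0.42 and -0.76. Chek1, the S phase checkpoint kinase, differed by -0.39 and -0.78, with all 4 of its probe sets lower in both pairs.

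The E2F element was searched as TTTCCCGC or TTTGGCGC. It was in 12 of 38 replication genes with a sequence (31.6%) and in 3.70% of all tested genes. Among genes with a sequence that differed by at least 0.5 in both pairs, it was in 3 of 44 lower ones (6.82%) and 0 of 60 higher ones. It is printed for Cdc6 (chr11:98907983-98908050, plus strand) and Brca2 (chr5:150522423-150522490, plus), in capitals on the opposite strand, because both genes were lower by at least 0.7 in both pairs.
Cdc6: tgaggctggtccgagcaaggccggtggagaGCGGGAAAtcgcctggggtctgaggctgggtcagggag
Brca2: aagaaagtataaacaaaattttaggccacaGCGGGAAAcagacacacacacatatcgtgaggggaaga
The element starts 138 and 168 bases before the start site.

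Genes of cell cycle arrest differed less. Of 29 p53 targets 14 were higher and 5 lower in both pairs, with a median of 0.16 (0.076 without the +/+ line of pair 9938) and 1 at an unadjusted p under 0.05. That gene was Gadd45a, a growth arrest gene, which measured 10.12 and 10.45 in pair 9515 and 10.02 and 10.31 in pair 9938. Cdkn1a, the p21 inhibitor, added here because it is the best known p53 target and after its values were seen, differed by 0.29 and 0.16 (unadjusted p = 0.129). Of 16 CDK inhibitors and senescence regulators 7 were higher and 1 lower in both pairs, with a median of 0.06 (-0.025 without the +/+ line of pair 9515).

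Cdkn2a, which encodes the senescence proteins p16 and p19Arf, measured 7.68 and 7.93 in the +/+ and H/H lines of pair 9515 and 7.01 and 7.66 in pair 9938. Its difference was 0.45 (SE 0.15; unadjusted p = 0.035, adjusted p = 0.553 by limma), and the H/H line of pair 9938 lay just below the +/+ line of pair 9515. Its 1 probe set does not separate the 2 proteins of the locus. Cdkn1c, the imprinted inhibitor p57, was higher by 0.70 and 1.16 at levels near the floor.

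Interferon response genes were higher. Of 26 tested genes 19 were higher and 0 lower in both pairs, 7 of them by at least 0.5 in both, and 12 had an unadjusted p under 0.05. Gbp3 and Usp18 are among the 19, the 7 and the 12, though they passed the filter only through the H/H lines. The median was 0.28 (0.25 in pair 9515 and 0.49 in pair 9938), and 23 of the 26 reached a log2 value of 4 on all 4 arrays, with a median of 0.27 over those. Without the H/H line of pair 9515 the median over the 26 was 0.59. Ifit1, which binds foreign RNA caps, measured 5.69 in +/+ and 7.29 in H/H of pair 9515 and 5.06 in +/+ and 7.22 in H/H of pair 9938. The H/H lines were level and both above the +/+ lines, with a difference of 1.88 (SE 0.17), or 3.68-fold (unadjusted p = 0.000252, adjusted p = 0.303 by limma). Ifit3, of the same family, measured 5.39 and 6.19 in pair 9515 and 4.80 and 6.04 in pair 9938.

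Gbp3 (a guanylate-binding GTPase) and Usp18 (the protease that removes ISG15) passed the filter only through the H/H lines, so a difference was built into their entry. Gbp3 measured 2.99 and 4.02 in pair 9515 and 3.19 and 4.38 in pair 9938. Usp18 measured 3.94 and 4.82 in pair 9515 and 3.94 and 5.18 in pair 9938. The related Gbp2, named here for its promoter, differed by 0.57 and 0.78. The mean level of the interferon list was 6.06 in +/+ and 6.39 in H/H of pair 9515, and 6.07 in +/+ and 6.64 in H/H of pair 9938. The macrophage and leukocyte list, whose cells also express such genes, was higher in both lines of pair 9938, and its part was not tested.

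The interferon-stimulated element was searched as GAAA, any 2 bases, GAAA. It was in 11 of 22 interferon genes with a sequence (50%) and in 3.84% of all tested genes. Among genes with a sequence that differed by at least 0.5 in both pairs, it was in 13 of 60 higher ones (21.7%) and 3 of 44 lower ones (6.82%). It is shown for 3 genes that were higher in both pairs, on chr19:34640774-34640843, chr19:34583367-34583456 and chr3:142620574-142620643 (all plus strand), in capitals and on the opposite strand.
Ifit1: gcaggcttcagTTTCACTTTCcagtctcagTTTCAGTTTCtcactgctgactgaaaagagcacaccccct
Ifit3: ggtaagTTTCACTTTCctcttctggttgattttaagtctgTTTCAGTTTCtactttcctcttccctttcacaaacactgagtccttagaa
Gbp2: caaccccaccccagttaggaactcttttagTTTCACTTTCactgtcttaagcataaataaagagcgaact
Ifit1 and Ifit3 each hold 2 copies in the stretch shown, and Gbp2 holds 1.

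Secreted factors, a list built from the senescence-associated secretome, gave 22 higher and 7 lower of 36 in both pairs, with a median of 0.32 and 13 higher and 2 lower at an unadjusted p under 0.05. Ccl5 is among the 13 and passed the filter only through the H/H lines. The median was 0.19 within pair 9515 and 0.21 within pair 9938, and 0.15 without the +/+ line of pair 9938. Mmp13, collagenase 3, measured 5.05 in +/+ and 7.47 in H/H of pair 9515 and 6.41 in +/+ and 8.57 in H/H of pair 9938. Both H/H lines lay above both +/+ lines, with a difference of 2.29 (SE 0.13), or 4.88-fold, and an adjusted p of 0.122 by limma. Mmp13 passed after quantile normalization (0.0224) and with an intensity trend and robust prior (0.0181). Its adjusted p was 0.109 without a filter, 0.081 with a value of 6 on 2 arrays and 0.184 with a value of 4 on all arrays. With the mean of probe sets it was 0.054 and with centred arrays 0.087, and Mmp13 did not pass without the block. Mmp3, stromelysin, measured 7.38 and 8.72 in pair 9515 and 8.60 and 9.60 in pair 9938, and its difference ranged from 0.57 to 1.78 with single lines left out.

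The chemokine genes did not all lie on one side. Ccl8, a monocyte chemokine, measured 4.37 and 5.30 in pair 9515 and 4.24 and 6.23 in pair 9938. Cxcl1, a neutrophil chemokine, was lower, at 6.34 and 5.84 in pair 9515 and 6.46 and 5.76 in pair 9938, with a difference of -0.60 (SE 0.12). Saa3, an acute phase gene outside the list, measured 5.27 and 7.37 in pair 9515 and 5.21 and 6.60 in pair 9938. Cxcl5 differed in opposite directions, by 0.78 in pair 9515 and -1.06 in pair 9938.

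**Figure D4:**
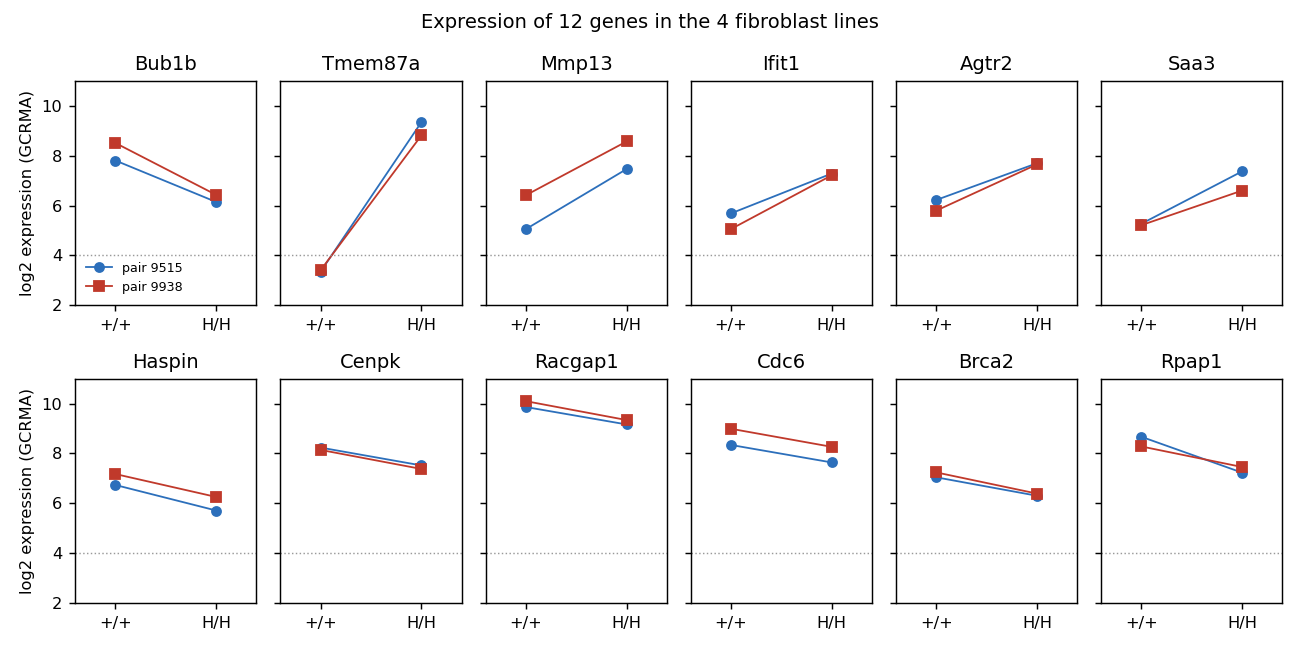
Log2 expression of 12 named genes in the +/+ and H/H line of pair 9515 (blue circles) and pair 9938 (red squares); the dotted line is the floor of 4. Tmem87a goes from 3.35 and 3.41 to 9.35 and 8.81, Bub1b comes down to 6.15 and 6.43, and Haspin, Cenpk, Racgap1, Cdc6 and Brca2 lie 0.70 to 1.02 lower in the H/H line of each pair.

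Other genes high in both H/H lines had varied roles. Agtr2, the type 2 angiotensin receptor, measured 6.22 and 7.70 in pair 9515 and 5.80 and 7.65 in pair 9938, so that the H/H lines were level and above both +/+ lines (difference 1.67, SE 0.15; adjusted p = 0.271 by limma). Kcne4, a potassium channel subunit, measured 4.70 and 6.06 in pair 9515 and 6.02 and 7.54 in pair 9938. Septin4, a septin, differed by 1.35 and 1.57, and Adh1, an alcohol dehydrogenase that oxidises retinol, by 0.94 and 1.59. Ms4a4d, of a membrane-spanning family that leukocytes also express, measured 3.85 and 5.08 in pair 9515 and 6.11 and 8.36 in pair 9938, in the pair order of the macrophage markers. For Septin4 and Ms4a4d the groups overlapped in level, and for Kcne4 the lowest H/H value lay just above the highest +/+ value. With single lines left out, which sets lines of different pairs against each other, the differences ranged from 0.71 to 2.18 for Kcne4, 0.54 to 2.37 for Septin4, 0.10 to 3.38 for Ms4a4d and 0.49 to 2.04 for Adh1.

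Among genes low in both H/H lines, U90926 came first, with 8.71 and 6.93 in pair 9515 and 6.66 and 3.70 in pair 9938. Aqp1, a water channel, measured 9.97 and 9.10 in pair 9515 and 8.71 and 5.99 in pair 9938, so its difference depended on the pair. Scara5, a ferritin receptor of stromal cells, differed by -0.91 and -1.07, Pcsk6, a proprotein convertase, by -0.93 and -0.77, and Lipg, endothelial lipase, by -0.80 and -0.72 (the same sign in both pairs on 2 of 3 probe sets). Brinp1, known as an inhibitor of cell cycle progression in neurons, differed by -0.80 in each pair. Groups of Pcsk6, Lipg and Scara5 overlapped in level. With single lines left out, Pcsk6 ranged from -1.74 to 0.034, the latter without the +/+ line of pair 9515, and Lipg from -1.51 to -0.0090, also the latter without that line. The ranges were -3.35 to -0.24 for Aqp1, -3.99 to -0.75 for U90926 and -1.55 to -0.43 for Scara5, with the smallest differences without the H/H line of pair 9938.

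Ribosome biogenesis genes gave 0 higher and 37 lower of 53 in both pairs, with a median of -0.25 (-0.12 in pair 9515 and -0.32 in pair 9938, and -0.11 without the +/+ line of pair 9938) and 7 at an unadjusted p under 0.05. Of the 53, 0 were lower by at least 0.5 in both pairs. Polr1a, the largest subunit of RNA polymerase I, measured 7.02 and 6.74 in pair 9515 and 7.28 and 6.47 in pair 9938. Nolc1, a nucleolar chaperone, differed by -0.23 and -0.72. Nucleotide and one-carbon synthesis genes gave 1 higher and 16 lower of 24, 0 of them lower by at least 0.5 in both pairs, with a median of -0.21 (-0.12 without the +/+ line of pair 9938). In pyrimidine synthesis, Dhodh differed by -0.43 in each pair (on 1 of 2 probe sets), and Umps by -0.31 and -0.58 on 3 probe sets of the same sign. Cholesterol and fatty acid synthesis genes gave 1 higher and 15 lower of 27, with 0 at an unadjusted p under 0.05 and a median of -0.09, and the median's sign turned, to 0.017 without the H/H line of pair 9515 and to 0.039 without the +/+ line of pair 9938. Lysosome and autophagy genes gave 24 higher and 3 lower of 44, with a median of 0.12 (0.052 without the +/+ line of pair 9938). Ctsh, a lysosomal protease, measured 7.98 and 8.54 in pair 9515 and 7.14 and 8.64 in pair 9938.

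**Figure D5:**
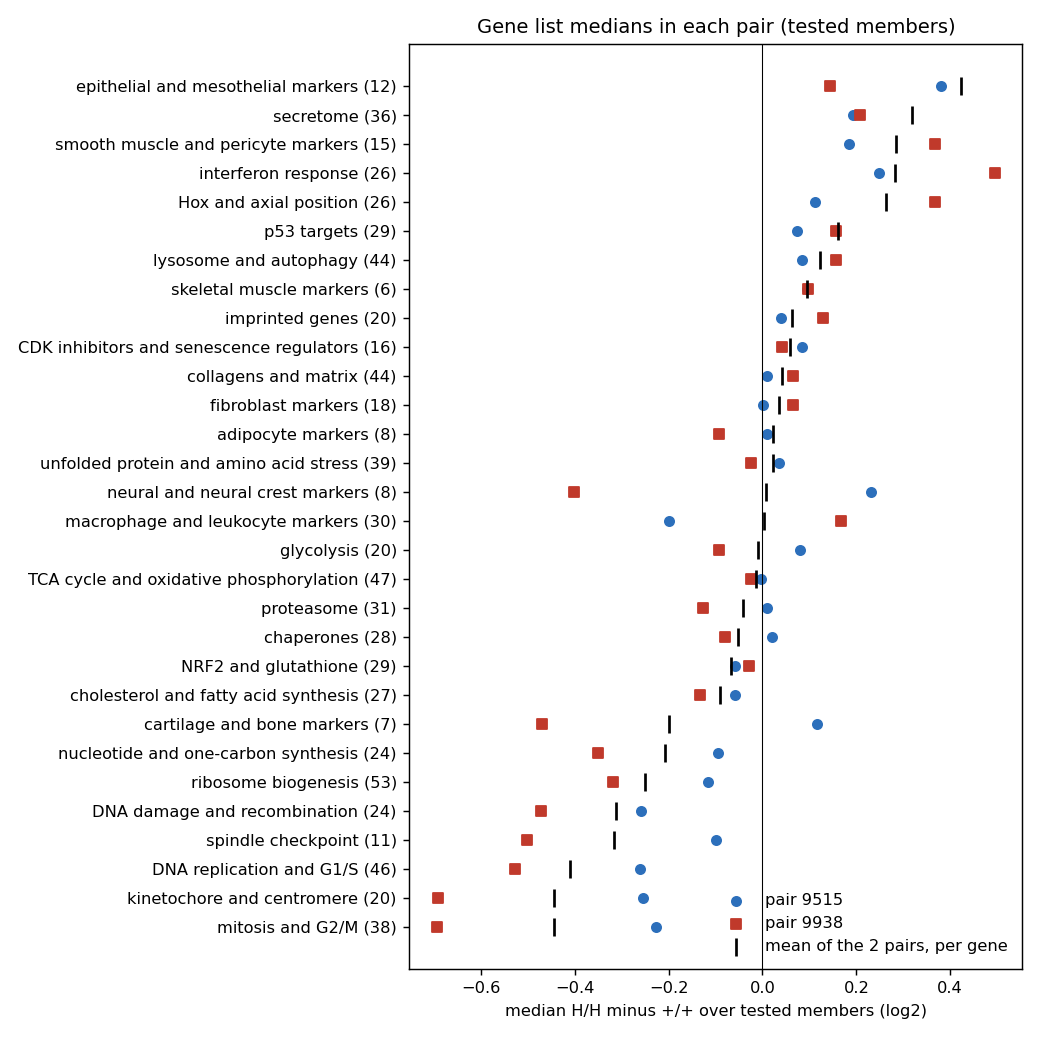
Median H/H minus +/+ difference (log2) over the tested members of 30 gene lists (number in brackets) in pair 9515 (blue circles) and pair 9938 (red squares); the bar is the median of the per-gene means over pairs. Mitosis, kinetochore, replication and checkpoint lists lie left of 0 in both pairs, interferon and secretome lists right of 0, and macrophage, cartilage and neural markers on opposite sides in the 2 pairs.

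Positional and lineage markers were looked at in the same way. Hox and axial position genes gave 16 higher and 2 lower of 26, with a median of 0.26 (0.11 in pair 9515 and 0.37 in pair 9938), and 8 higher and 1 lower at an unadjusted p under 0.05. Of the 26, 5 were under a log2 value of 4 on at least 1 array, and Hoxc13, which is among the 8, passed the filter only through the H/H lines. Hoxb9 measured 7.91 and 8.56 in pair 9515 and 8.63 and 9.10 in pair 9938, and Hoxb5 differed by 0.54 and 0.42. Smooth muscle and pericyte markers gave 11 higher and 2 lower of 15, with a median of 0.28 (0.19 without the H/H line of pair 9938). Among them Cnn1, the contractile protein calponin, measured 9.89 and 10.40 in pair 9515 and 9.53 and 10.00 in pair 9938. Rgs5, a pericyte marker, differed by 0.85 and 1.70 with all 4 probe sets higher, and Des, desmin, by 0.60 and 0.46 on one probe set while its other had the opposite sign.

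Epithelial and mesothelial markers gave 9 higher and 1 lower of 12, with a median of 0.42 (0.38 in pair 9515 and 0.14 in pair 9938). However, 5 of the 12 fell under a log2 value of 4 on at least 1 array. Wt1, a transcription factor of mesothelium and kidney that also lies 26 tested genes before Bub1b, measured 5.06 and 6.15 in pair 9515 and 4.87 and 5.92 in pair 9938. Upk3b, a mesothelial surface protein, measured 7.28 and 8.13 in pair 9515 and 5.81 and 6.89 in pair 9938, and its difference was 0.23 without the +/+ line of pair 9938. The list's median turned to -0.18 without the H/H line of pair 9515 and to -0.081 without the +/+ line of pair 9938.

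Imprinted genes gave 9 higher and 3 lower of 20, with a median of 0.06 (-0.026 without the +/+ line of pair 9938) and 5 of them at least 0.5 higher in both pairs. Nnat, a paternally expressed membrane protein, measured 4.24 and 5.17 in pair 9515 and 4.20 and 5.25 in pair 9938. Peg3, a paternally expressed zinc finger protein, measured 11.01 and 11.72 in pair 9515 and 11.46 and 12.22 in pair 9938, with its 3 probe sets all higher. Mest differed by 0.53 and 1.70, and the remaining 2 of the 5 were Cdkn1c and Dcn. Dcn, the matrix proteoglycan decorin, measured 8.28 and 9.68 in pair 9515 and 9.72 and 10.31 in pair 9938. The fibroblast markers as a list had a median of 0.04, with 9 higher and 4 lower of 18, and collagen and matrix genes one of 0.04, with 20 higher and 6 lower of 44.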

How the data were processed

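Amplified, biotin-labelled RNA of each line went onto 1 Affymetrix mouse array, per the labels' protocols. The authors deposited log2 values, made with R 2.15.3 and GCRMA 2.28.0 per the submitters' processing notes; GCRMA removes background and forces arrays to a common distribution. Of 22626 probe sets, 20380 had 1 gene symbol in the platform annotation, 691 several and 1555 were not listed; for 20351 the gene was found in a RefSeq table (GRCm38.p6). For a gene with several probe sets, the one that was brightest on average on the 4 arrays was used. Differences were fitted with limma (version 3.58.1, R 4.3.3) by lmFit and eBayes, blocked by pair number; tests were two-sided, adjusted by Benjamini-Hochberg, with a threshold of 0.05, and the script was tested on simulated data. The pairing comes from the titles. To check it over all 6 arrays, BubR1 H/H and CDC20 AAA/AAA lines were put in one group, and BubR1 +/+ and CDC20 +/+ lines in the other. Deviations of same-numbered lines from the means of these groups correlated at 0.82, 0.70 and 0.61 for 9515, 9938 and 10074.

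Gene lists, 32 in all, were described by counts and medians. The members, lists and rules were chosen with earlier results of these data known. Named genes were Bub1b, the 12 highest and 12 lowest by the smaller pair difference and the 6 most opposite (mean log2 level of at least 6 in the higher group), from each list the 4 or fewer members of smallest p (not all printed), and the genes around Bub1b. Promoter elements and stretches were chosen after the values were seen. Other filters, probe set rules, normalizations, a variance prior, no block and each line left out were tried. Scanner files and the CDC20 lines were not analysed here, except in the pairing check.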

Additional observations from a re-analysis of the deposited data

Results flagged for a closer look

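In 6 genes named for this reason, the pairs differed in opposite directions. Only the signs of 1 line against 1 line are behind this, the difference between the pairs was not tested, and the genes were chosen for it, by the smaller of their 2 absolute differences. Nnmt, an enzyme that methylates nicotinamide, differed by -1.71 in pair 9515 and 1.57 in pair 9938, a gap of 3.28. St8sia2, a sialyltransferase that makes polysialic acid, differed by -0.76 and 1.30, a gap of 2.06. The other 4 ran the other way: the chemokine gene Cxcl5 at 0.78 and -1.06 (gap -1.84), the homeobox gene Pknox1 at 0.98 and -0.65 (gap -1.63), Trim16 at 0.68 and -0.84 (gap -1.52), and the lactate exporter gene Slc16a3 at 0.62 and -0.62 (gap -1.24). St8sia2, Pknox1 and Trim16 have 2 probe sets each, of which these values are 1; St8sia2 has 1 probe set that was lower in both pairs and Pknox1 has 1 that was higher in both pairs.

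Medians of 3 marker lists also had opposite signs in the pairs, and these differences were not tested either. Macrophage and leukocyte markers had -0.20 in pair 9515 and 0.17 in pair 9938, a gap of 0.37. Cartilage and bone markers, of which 7 were tested, had 0.12 and -0.47, a gap of -0.59, and neural and neural crest markers, of which 8 were tested, 0.23 and -0.40, a gap of -0.63.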

How the results depend on the processing

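The pair block decides the count of calls: with it 1 gene was higher at an adjusted p under 0.05, and with no replicate block 0 were, with 120 higher and 138 lower genes at an unadjusted p under 0.05. Across 2 pairs the fit rests on 1 residual degree of freedom and on a spread shared over genes, and the number of arrays limits every value. Requiring a log2 value of 4 on all 4 arrays also gave 0 calls and left 1 gene lower by at least 1 in both pairs; quantile normalization and the intensity trend with a robust prior each gave 2, Tmem87a and Mmp13. Requiring a value of 6 on at least 2 arrays left 44 genes higher by at least 0.5 in both pairs. Bub1b kept its direction under all alternatives, from -1.52 to -2.22 with single lines left out, and passed under none (adjusted p 0.0584 to 1).

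Each line was also left out in turn, in fits with no replicate block that assume the lone line varies like the others, and each pair in turn, as a value with no test. These gave 0 calls, 48 to 278 genes higher and 37 to 308 lower at an unadjusted p under 0.05. List medians that moved by more than the spread of the pairs ranged as follows: DNA damage -0.47 to -0.22, p53 targets 0.073 to 0.16, CDK inhibitors -0.025 to 0.084, secretome 0.15 to 0.41, interferon 0.21 to 0.59, chaperones -0.080 to 0.020, unfolded protein stress -0.044 to 0.052, lysosome 0.052 to 0.16, TCA cycle -0.025 to 0.005, cholesterol -0.29 to 0.039, NRF2 -0.079 to -0.028, collagens 0.010 to 0.096 and imprinted genes -0.026 to 0.21. Among markers the ranges were -0.013 to 0.065 for fibroblasts, -1.52 to 1.39 for macrophages, -0.027 to 0.15 for skeletal muscle, -0.88 to 0.76 for cartilage, -0.18 to 0.0095 for adipocytes and -0.18 to 0.92 for epithelium and mesothelium. The macrophage range follows from the pairs' levels, since leaving out a line sets 1 pair against the other. Pcsk6 ranged from -1.74 to 0.034.

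Other settings moved few medians. The secretome median was 0.30 with a value of 4 on all arrays, 0.30 without a filter, 0.22 with a value of 6 on 2 arrays, 0.29 with the mean of probe sets and 0.30 with centred arrays. The mean of probe sets gave -0.022 for unfolded protein stress and -0.035 for the TCA cycle. Skeletal muscle markers had 0.024 without a filter, 0.081 with a value of 6 on 2 arrays, 0.081 with the mean of probe sets, 0.082 with centred arrays and 0.11 after quantile normalization. Epithelial and mesothelial markers had 0.20 without a filter. Except where named, the cause was not tested.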

Other observations

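Several housekeeping programmes differed little between the genotypes. Chaperone genes gave 6 higher and 8 lower of 28 in both pairs (median -0.05), proteasome genes 2 higher and 13 lower of 31 (median -0.04), unfolded protein and amino acid stress genes 10 higher and 7 lower of 39 (median 0.02), glycolysis genes 6 higher and 5 lower of 20 (median -0.01), TCA cycle and oxidative phosphorylation genes 7 higher and 14 lower of 47 (median -0.01), and NRF2 and glutathione genes 6 higher and 10 lower of 29 (median -0.07). The stress-inducible chaperone gene Hspa1a was an exception within its list, at 5.16 and 5.60 in the +/+ and H/H lines of pair 9515 and 5.10 and 5.95 in pair 9938, and Hspb1, a small heat shock protein, differed by 0.27 and 0.64. Gpx3, a secreted glutathione peroxidase, measured 7.32 and 8.05 in pair 9515 and 7.86 and 8.43 in pair 9938. None of these genes passed the limma test after adjustment.

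Pparg, the master regulator of fat cell formation, was lower in both pairs, at 7.06 and 6.47 in pair 9515 and 6.22 and 5.42 in pair 9938. Its groups overlapped in level, and with single lines left out its difference ranged from -1.21 to -0.17. Of the 8 tested adipocyte markers 2 were higher and 3 lower in both pairs, with a median of 0.02. Among these, Cebpa differed by -0.32 and -0.41 and Cd36 by 0.33 and 1.04. Skeletal muscle markers, with 6 of 26 tested, had a median of 0.10.

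Cd59a, a complement regulator on the same chromosome as Bub1b, measured 9.15 in +/+ and 5.16 in H/H of pair 9515 and 7.61 in +/+ and 7.80 in H/H of pair 9938. It was chosen after its values were seen, because no other gene in the window around Bub1b was as low in one pair alone.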
